A study of Mus musculus with 3 samples.

Results

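Memory CD8 T cells of mice express genes that most naive CD8 T cells express little, and the mesenteric lymph node was examined for CD8 T cell barcodes that carried such genes. A barcode, the tag of 1 droplet, was kept if it held 300 genes or more and if mitochondrial genes gave no more than 10% of its UMIs (unique molecular identifiers, 1 per captured transcript). It counted as a CD8 T barcode with a UMI of Cd3d, Cd3e or Cd3g, of Cd8a and of Cd8b1, and none of Cd4, Cd79a and Trdc. Members also held a UMI of at least 2 of Il2rb, Eomes, Ly6c2, Cxcr3, Klrd1 and Klrk1, called the 6 memory genes here. These were 736 of the 67002 kept barcodes, 284 from LysoPS-OVA, 177 from free OVA and 275 from citrate buffer. The other 1217 CD8 T barcodes, with 0 or 1 memory gene, numbered 366, 235 and 616 in the same order.

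Each group was 1 library made from the pooled nodes of 6 mice that were fed by mouth for 4 weeks. The LysoPS-OVA mice received 1 µg of ovalbumin (OVA, a model food antigen) in nanoparticles with lysophosphatidylserine, the free OVA mice 1 µg of ovalbumin alone and the citrate buffer mice 5 mM citrate buffer without ovalbumin. Strain, age and sex are not among the labels used here. Cells were freed by enzymatic digestion and depleted of dead cells, and each library was loaded with 10000 of them for 3' counting of transcripts, per the labels' protocols. With 1 library per group there is no spread between animals and no test, cells are not replicates, and every 95% interval covers counting error only.

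The libraries differed in depth, which bears on any rule that asks for a UMI. The median of UMIs per member was 7067 in LysoPS-OVA, 8657 in free OVA and 6326 in citrate buffer, and in the other CD8 T barcodes it was 5730, 6768 and 4584. No member barcode sequence was a member in 2 libraries, although the libraries shared 166 to 194 barcode sequences over all deposited barcodes. B cell barcodes (Cd79a and Ms4a1 with a UMI, no Cd3 gene), 4170 to 4948 per library, served as the level of free RNA for genes that B cells do not express. At least 2 memory genes were found in 0.303%, 0.194% and 0.671% of them in LysoPS-OVA, free OVA and citrate buffer. Of barcodes with transcripts of 1 sex only, those with Y-linked ones made up 77.5%, 86.5% and 59.5% of such members in the same order. Left out of this share were 20 of 284, 11 of 177 and 44 of 275 members that held transcripts of both sexes. The part of depth, free RNA and barcodes of 2 cells in the share was not tested. The sex makeup of the libraries thus appeared to differ, and its part in the differences between libraries was not tested.

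The label of memory-like cells was only partly borne out by transcripts. Nkg7, a granule protein of cytotoxic lymphocytes, was detected in 90.8%, 90.4% and 91.6% of members in LysoPS-OVA, free OVA and citrate buffer, with 3.87, 1.38 and 9.18 CPM (UMIs scaled to a fixed total, each gene's UMIs over the summed UMIs of its group) in B barcodes against 571, 456 and 564 CPM in members. Cd8b1, the CD8 beta chain that the rule required, had 468, 443 and 520 CPM. Nkg7 was not confined to members. With barcodes cut to an equal number of UMIs, Nkg7 was detected in 45.9%, 38.8% and 44.0% of the other CD8 T barcodes. At that depth it was detected in 62.0%, 55.1% and 62.0% of members, in the same library order. Naive T cell genes were present as well. Lef1, a transcription factor of naive T cells, was detected in 96.5%, 97.7% and 98.9% of members. Cd44, the classical surface marker of memory, was sparse, with 23.5, 17.2 and 21.5 CPM in members and 13.7, 7.67 and 21.2 CPM in the other CD8 T barcodes, and a UMI in 13%, 11.3% and 11.6% of members. The intervals of these levels overlapped in each library, with a ratio of 1.71 in LysoPS-OVA, 2.24 in free OVA and 1.02 in citrate buffer. B cells express Cd44 themselves, so B barcodes give no floor for it. Since naive genes were detected in nearly all members and Cd44 in few, the members are called memory-gene CD8 T barcodes rather than memory cells.

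Memory CD8 T cells persist after an antigen response or arise in unimmunised mice through homeostatic cytokines, and they respond faster than naive cells. Interleukin-15, presented by other cells, signals through the receptor chain encoded by Il2rb and maintains them, and the T-box factors Eomes and T-bet drive Il2rb and other genes of the state. In mice, the surface protein Ly6C and the chemokine receptor CXCR3 are also common on such cells, while Klrd1 (CD94) and Klrk1 (NKG2D) encode receptors shared with natural killer cells. In gut-draining nodes the chemokine receptor CCR9 and the integrin CD103 guide lymphocytes to the small intestine and hold them in its epithelium.

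Promoters were looked up for the 6 memory genes and for Nkg7, which was present in nearly all members, and the windows of Ly6c2, Cxcr3, Klrk1 and Nkg7 are shown because each holds a searched motif. Il2rb and Klrd1 were matched to no window. Each is the RefSeq window on GRCm38.p6 from 250 bases before to 50 bases after the start, on the gene's strand. Capitals mark a match to 1 of 2 motifs searched on both strands, the T-box core GGTGTGA or the Runx core AACCACA. Of 32851 such windows, 3.98% held the first and 5.27% the second. The Ly6c2 window (chr15:75111922-75112221, minus strand), from the gene of the Ly6C surface protein, holds the Runx letters.
Ly6c2: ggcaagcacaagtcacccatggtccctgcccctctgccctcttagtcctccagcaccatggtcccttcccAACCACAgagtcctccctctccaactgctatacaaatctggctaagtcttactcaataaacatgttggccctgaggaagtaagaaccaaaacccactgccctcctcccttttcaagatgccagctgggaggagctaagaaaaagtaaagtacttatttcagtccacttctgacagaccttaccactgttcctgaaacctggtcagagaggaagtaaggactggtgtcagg
The Cxcr3 window (chrX:101734098-101734397, minus strand) holds them just past the start.
Cxcr3: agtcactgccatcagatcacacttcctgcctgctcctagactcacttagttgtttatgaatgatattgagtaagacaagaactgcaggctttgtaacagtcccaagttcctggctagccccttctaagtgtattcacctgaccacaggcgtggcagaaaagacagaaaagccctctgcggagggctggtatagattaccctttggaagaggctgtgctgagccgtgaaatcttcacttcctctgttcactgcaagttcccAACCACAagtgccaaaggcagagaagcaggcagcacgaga
In the Klrk1 window (chr6:129623815-129624114, minus strand) the Runx letters lie on the opposite strand, so they read as the reverse complement.
Klrk1: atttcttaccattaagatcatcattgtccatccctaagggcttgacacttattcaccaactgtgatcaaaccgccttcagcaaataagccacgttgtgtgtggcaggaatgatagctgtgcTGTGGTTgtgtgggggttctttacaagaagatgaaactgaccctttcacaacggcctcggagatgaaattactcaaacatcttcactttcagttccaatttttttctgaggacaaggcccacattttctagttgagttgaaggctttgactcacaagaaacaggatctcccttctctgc
The Nkg7 window (chr7:43436888-43437187, plus strand) holds the T-box letters.
Nkg7: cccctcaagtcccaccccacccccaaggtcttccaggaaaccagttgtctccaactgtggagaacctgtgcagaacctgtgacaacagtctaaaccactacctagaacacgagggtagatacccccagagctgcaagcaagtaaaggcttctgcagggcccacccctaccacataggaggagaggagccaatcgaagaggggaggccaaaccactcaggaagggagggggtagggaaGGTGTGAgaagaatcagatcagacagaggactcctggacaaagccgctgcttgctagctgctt
The Eomes window held neither motif and is not shown. A match is a description of letters and says nothing about binding.

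Memory-gene barcodes made up 43.7% of CD8 T barcodes in LysoPS-OVA (95% interval 39.8 to 47.6), 43.0% in free OVA (38.1 to 47.9) and 30.9% in citrate buffer (27.8 to 34.0). The ratio of shares was 1.42 (1.24 to 1.61) for LysoPS-OVA over citrate buffer, 1.39 (1.20 to 1.61) for free OVA over citrate buffer and 1.02 (0.883 to 1.17) for LysoPS-OVA over free OVA. Because deeper barcodes pass the rule more easily, each CD8 T barcode was also thinned to 2000 UMIs. The share was then 18.7% in LysoPS-OVA (121 of 648, 15.7 to 21.9) and 13.4% in free OVA (54 of 403, 10.2 to 17.1). In citrate buffer it was 12.2% (105 of 858, 10.1 to 14.6), and 2, 9 and 33 shallower barcodes were left out of the 3 libraries. At equal depth the ratio was 1.53 (1.20 to 1.94) for LysoPS-OVA over citrate buffer, 1.09 (0.806 to 1.49) for free OVA over citrate buffer and 1.39 (1.04 to 1.87) for LysoPS-OVA over free OVA. The excess in LysoPS-OVA over citrate buffer thus remained at equal depth, while that in free OVA had an interval that includes 1.

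As a share of all kept barcodes, members were 1.64% in LysoPS-OVA, 0.759% in free OVA and 1.04% in citrate buffer, a different order, and CD8 T barcodes were 412 of 23331 in free OVA. The kept barcodes of free OVA stood apart, with a median of 1871 UMIs against 4248 in LysoPS-OVA and 2829.5 in citrate buffer, and with Malat1, a nuclear RNA, under 0.5% of UMIs in 50.3% of barcodes against 20.5% and 25.3%. The part of these in the share of all kept barcodes was not tested. Most members sat at the edge of the rule. Exactly 2 memory genes were found in 175, 101 and 167 of the members in LysoPS-OVA, free OVA and citrate buffer, exactly 3 in 66, 52 and 78, and 4 or more in 43, 24 and 30. Just outside the rule, 211, 122 and 315 CD8 T barcodes held exactly 1. The most frequent way in was Ly6c2 with Klrd1 and no other memory gene, which held for 31.0% of members in LysoPS-OVA, 26.0% in free OVA and 30.5% in citrate buffer.

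**Figure D1:**
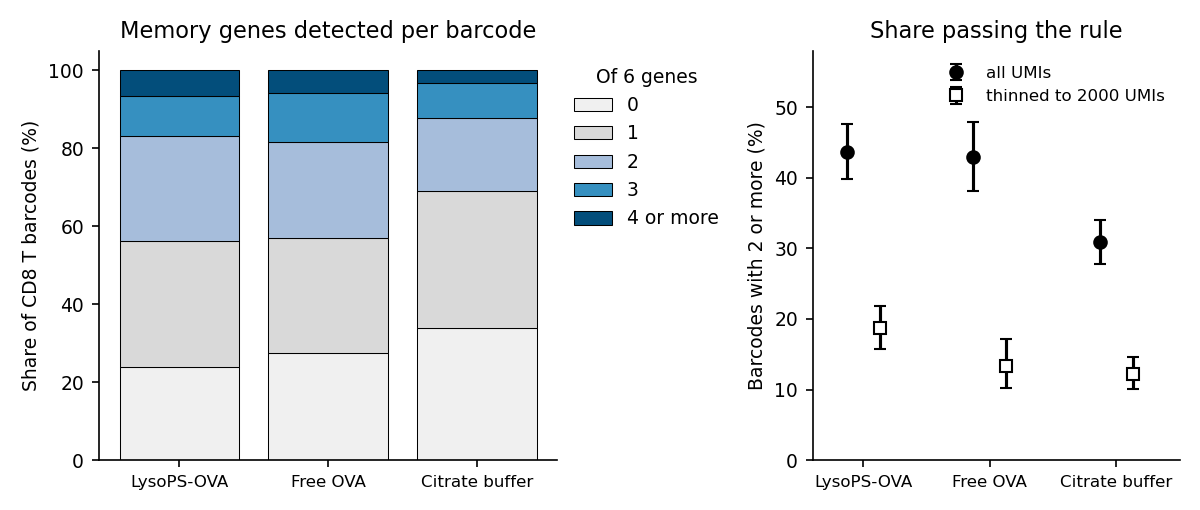
Left, the share of CD8 T barcodes (percent) with 0, 1, 2, 3 or 4 and more of the 6 memory genes in each library. Right, the share with 2 or more (percent, with exact 95% binomial intervals), from all UMIs (filled circles) and after thinning to 2000 UMIs (open squares): 43.7%, 43.0% and 30.9% against 18.7%, 13.4% and 12.2% in LysoPS-OVA, free OVA and citrate buffer.

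The 6 genes did not contribute equally, and their values in members describe the rule and are no finding. Ly6c2 was the most abundant, with 594, 580 and 659 CPM in LysoPS-OVA, free OVA and citrate buffer, and it was detected in 77.8%, 78.0% and 85.5% of members. Klrd1 came next with 196, 198 and 219 CPM and detection in 76.8%, 80.2% and 77.5%. Il2rb had 93.9, 84.6 and 96.4 CPM. The remaining 3 genes were sparse: Eomes was detected in 25.4%, 21.5% and 19.6% of members, Klrk1 in 18.3%, 19.2% and 14.5%, and Cxcr3 in 15.5%, 14.1% and 13.5%. Most members were thus chosen on Ly6C and CD94 transcripts and held no UMI of Eomes or Cxcr3.

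Summed over all CD8 T barcodes, members and others together, 5 of the 6 genes differed by less between LysoPS-OVA and citrate buffer than the share of members did, and Klrk1 by more. Ly6c2 had 354 CPM in LysoPS-OVA (337 to 372), 316 CPM in free OVA (297 to 336) and 313 CPM in citrate buffer (297 to 329). Klrk1 had 26.6 CPM (22 to 32.0), 13.7 CPM (9.92 to 18.5) and 15.5 CPM (12.2 to 19.4), and Eomes had 28.2 CPM (23.5 to 33.7), 20.7 CPM (16.0 to 26.4) and 20.9 CPM (17.0 to 25.4). These 3 genes were highest in LysoPS-OVA, with intervals clear of both other libraries for Ly6c2 and Klrk1 and overlapping ones for Eomes, while free OVA and citrate buffer did not differ beyond their intervals. One LysoPS-OVA member held 16 of the 115 Klrk1 UMIs. The interval for Klrk1 takes each UMI as independent and is too narrow, so its gap to citrate buffer rests partly on 1 barcode. Il2rb, Cxcr3 and Klrd1 had overlapping intervals in the 3 libraries, at 47.8 to 52.6 CPM, 12.1 to 13.9 CPM and 133 to 144 CPM. Of these, Il2rb and Cxcr3 were also highest in LysoPS-OVA, and Klrd1 in free OVA.

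Members carried little of the effector programme. Gzmb, the granzyme of activated killer cells, had 0.939 CPM in LysoPS-OVA, 1.91 CPM in free OVA and 42.6 CPM in citrate buffer, where 1 barcode held 92.4% of its UMIs. Gzma, another granzyme, had 0.939, 0 and 47.4 CPM, and in citrate buffer 1 barcode held 73.9% of its UMIs. Without these barcodes granzymes A and B were nearly undetected. Klrg1, a receptor of terminally differentiated effector cells, had 0.470, 0 and 2.69 CPM, and Ifng, the gene of interferon gamma, had 0, 0.636 and 1.62 CPM. The inhibitory receptors Pdcd1 (4.23, 2.54 and 3.23 CPM) and Lag3 (8.45, 0.636 and 3.77 CPM) were as sparse. Perforin was present in a part of the members, with Prf1 at 52.6, 50.9 and 36.1 CPM in members and 43.4, 41.5 and 24.8 CPM in the other CD8 T barcodes.

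Markers of other cell types were low in members, but not absent. The 14 B cell markers summed to 982 CPM in LysoPS-OVA, 1480 CPM in free OVA and 1580 CPM in citrate buffer, against 1252, 1902 and 2083 CPM in the other CD8 T barcodes and 28034 to 33772 CPM in B barcodes. The 14 dendritic cell and myeloid markers summed to 152, 530 and 261 CPM in members and 200, 473 and 457 CPM in the other CD8 T barcodes. Natural killer and innate lymphoid markers summed to 37.6, 43.3 and 40.4 CPM over 8 genes, with Ncr1 and Klrb1c at 0 in free OVA and citrate buffer, and gamma delta and innate-like T cell markers to 6.11, 1.91 and 5.93 CPM over 7 genes, with Trdv4 and Sox13 at 0 in all 3 libraries.

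Members were next set beside the other CD8 T barcodes of the same library, as a description, since the rule separated them on measured values. Of 2970 genes outside the rule with at least 50 CPM and 30 UMIs in the higher of the pair in all 3 libraries, 3 were higher and 3 lower by 2-fold or more in every library, 0.101% of the genes in each direction. A 2-fold difference means a log2 ratio of CPM + 10 of at least 1 in size. The 3 higher genes were Ifngas1, Ccl5 and Ms4a4c, and the 3 lower ones were Ccr9, Rgcc and 1700062C10Rik. The last lies outside the rule for named genes and was named after its values were seen. Over all genes the median log2 ratio was -0.03, with 446 higher and 764 lower in all 3 libraries.

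Ifngas1 (chr10:118502035-118556525, minus strand, mm10) encodes a long noncoding RNA beside Ifng that promotes interferon gamma expression in mouse T cells. It had 90.2, 66.8 and 73.3 CPM in members of LysoPS-OVA, free OVA and citrate buffer, against 11.9, 5.11 and 20.8 CPM in the other CD8 T barcodes. Its log2 ratios were 2.20, 2.35 and 1.43, although Ifng itself, which does not overlap it, was close to 0 in members. Ms4a4c, a membrane protein of lymphocytes, had 162, 157 and 117 CPM in members and 74.4, 56.9 and 52.0 CPM in the other CD8 T barcodes. B barcodes held more of it, with 279, 273 and 244 CPM, while the B markers summed lower in members than in the other CD8 T barcodes of each library.

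Ccr9 (chr9:123678439-123784330, plus strand, mm10), the receptor for the small intestinal chemokine CCL25, was lower in members. It had 83.6, 85.3 and 115 CPM in members and 223, 201 and 292 CPM in the other CD8 T barcodes of LysoPS-OVA, free OVA and citrate buffer, with log2 ratios of -1.32, -1.15 and -1.28. After thinning to 2000 UMIs its log2 ratio was -1.39, -0.82 and -1.52, so the 2-fold difference was lost in free OVA. Of the 6 genes, Ccl5, Ms4a4c and Rgcc stayed past 2-fold in all 3 libraries after thinning, while 1700062C10Rik was at -0.61 in free OVA and Ifngas1, at 1.70 there, fell under 30 UMIs. Itgae, the CD103 integrin chain, had 35.7, 24.8 and 57.1 CPM in members and 65.3, 58.1 and 137 CPM in the other CD8 T barcodes, 2-fold lower in citrate buffer only (log2 -0.72, -0.97 and -1.13). The other chains of gut homing did not follow. Itga4 had 319, 294 and 365 CPM in members and 313, 288 and 362 CPM in the other CD8 T barcodes, and Itgb7 had 224, 212 and 212 CPM against 221, 243 and 267 CPM. Rgcc, a regulator of the cell cycle, had 66.7, 62.3 and 46.3 CPM in members and 145, 160 and 113 CPM in the other CD8 T barcodes.

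Several further genes differed in the same direction in every library by less than 2-fold in at least 1 of them. Dapl1, a gene of resting CD8 T cells, had 253, 335 and 296 CPM in members and 139, 180 and 189 CPM in the other CD8 T barcodes. Il18r1, a chain of the interleukin-18 receptor, had 142, 102 and 110 CPM against 71.7, 69.6 and 47.0 CPM. Itgb1, the beta 1 integrin chain of memory T cells, had 94.9, 116 and 71.7 CPM against 44.3, 49.2 and 43.0 CPM. Members thus also held more of a cytokine receptor and an adhesion molecule that the rule did not use. Tnfsf8 (CD30 ligand) had 101, 90.3 and 66.3 CPM against 52.1, 51.1 and 36.3 CPM, and Gpr183, a receptor for oxysterols that positions lymphocytes in the node, had 105, 85.3 and 70.0 CPM against 40.6, 31.3 and 37.3 CPM, with 442, 342 and 247 CPM in B barcodes.

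Genes of naive cells were lower in members, but by little. Of 16 naive and recirculating genes measured, 10 were lower and 3 higher in all 3 libraries, none by 2-fold, with a median log2 ratio of -0.20 against -0.03 over all genes, of which 25.7% were lower and 15.0% higher in all 3 libraries. Lef1 had 1218, 1302 and 1383 CPM in members and 1427, 1418 and 1713 CPM in the other CD8 T barcodes, and Ccr7, the receptor that brings T cells into the node, had 177, 155 and 176 CPM against 200, 174 and 213 CPM. Genes of homeostatic cytokine receptors and survival were mixed, as 3 of the 8 measured were higher and 3 lower in all 3 libraries. Among the higher ones, Il7r, the interleukin-7 receptor chain, had 607, 497 and 526 CPM against 493, 343 and 373 CPM, and Bcl2, which blocks apoptosis, had 646, 606 and 738 CPM against 547, 503 and 580 CPM. Among the lower ones, Il21r, the interleukin-21 receptor, had 114, 102 and 129 CPM against 137, 125 and 143 CPM.

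**Figure D2:**
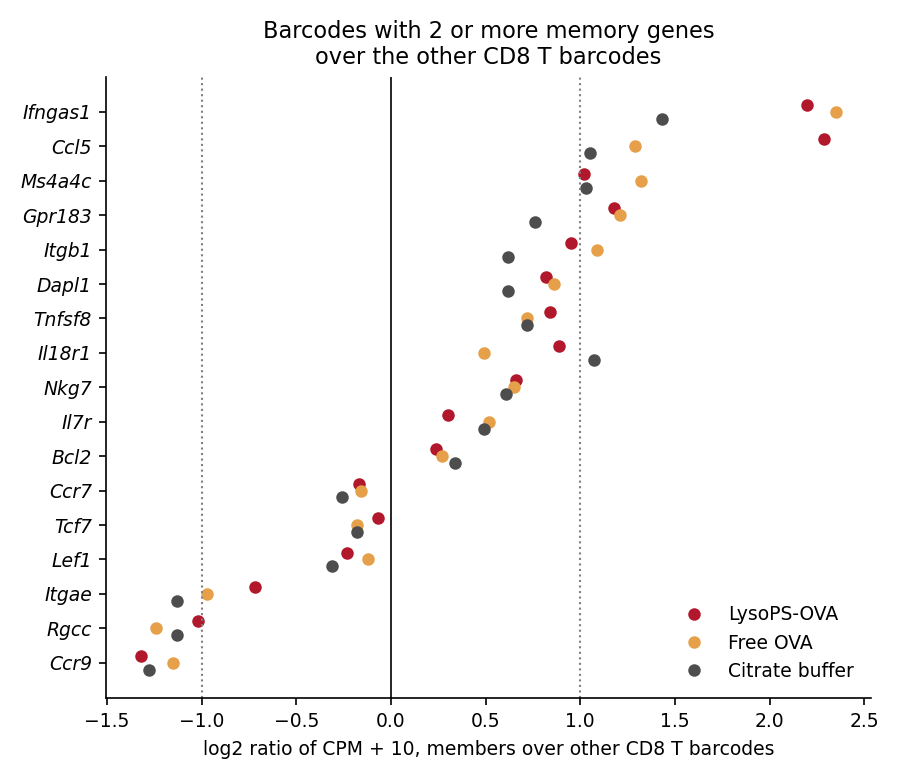
log2 ratio of CPM + 10, memory-gene CD8 T barcodes (members) over the other CD8 T barcodes of the same library, for 17 genes, with 1 point per library and dotted lines at a 2-fold difference. Ifngas1, Ccl5 and Ms4a4c lie past the line to the right and Rgcc and Ccr9 past the line to the left in all 3 libraries, while Ccr7, Tcf7 and Lef1 lie near 0.

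The number of memory genes in a barcode graded these differences. Ccr9 had 266, 196, 108, 65.8 and 35.0 CPM in LysoPS-OVA barcodes with 0, 1, 2, 3 and 4 or more memory genes. The same 5 steps gave 225, 182, 115, 81.1 and 7.56 CPM in free OVA and 332, 262, 144, 95.7 and 26.5 CPM in citrate buffer. Ccr9 was thus lower at every step in each library, including the step from 1 gene, just outside the rule, to 2 genes, just inside it. Nkg7 had 318, 382, 508, 697 and 606 CPM over these steps in LysoPS-OVA, 284, 289, 410, 481 and 540 CPM in free OVA and 309, 411, 542, 587 and 611 CPM in citrate buffer. Lef1 had 1377, 1459, 1262, 1085 and 1242 CPM in LysoPS-OVA, 1430, 1408, 1445, 1283 and 922 CPM in free OVA and 1742, 1691, 1495, 1301 and 1062 CPM in citrate buffer. It was thus lower with 4 or more genes than with 0 in each library, without an even slope in LysoPS-OVA. Dapl1 instead was highest in the middle, with 65.7, 185, 279, 263 and 165 CPM in LysoPS-OVA, 161, 196, 344, 340 and 298 CPM in free OVA and 135, 230, 311, 330 and 142 CPM in citrate buffer. The median UMIs of these barcodes also grew with the number of memory genes, for example 5173 at 0 genes and 9359 at 4 or more in LysoPS-OVA, and its part in these steps was not tested.

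**Figure D3:**
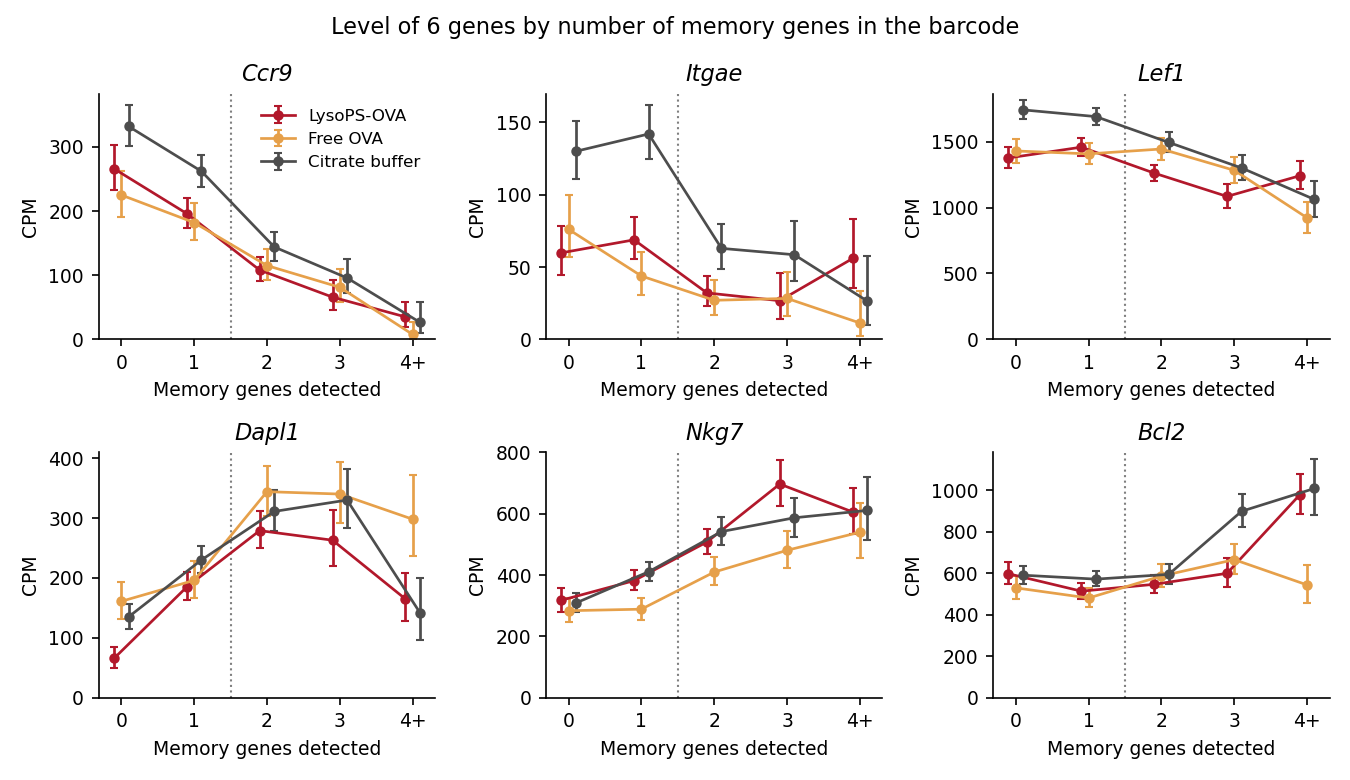
Level (CPM of summed UMIs, with exact 95% Poisson intervals) of 6 genes in CD8 T barcodes with 0, 1, 2, 3 and 4 or more memory genes, with 1 line per library and a dotted line at the rule's threshold. Ccr9 is lower at each step in all 3 libraries, Nkg7 is higher with 4 or more genes than with 0, and Dapl1 is highest at 2 or 3 genes.

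Ccl5, the chemokine RANTES that memory CD8 T cells store as transcript, was carried by few members. In LysoPS-OVA, free OVA and citrate buffer it had 627, 513 and 505 CPM in members. The other CD8 T barcodes had 120, 204 and 239 CPM of it. B barcodes had 203, 276 and 341 CPM of Ccl5, and its source there was not tested. A UMI of it was found in 26.1%, 35.6% and 37.5% of members (medians of 7067, 8657 and 6326 UMIs) and in 15.1%, 22.7% and 24.0% of B barcodes (4509, 5455 and 3755.5 UMIs). Members with at least 3 Ccl5 UMIs, called Ccl5-high here, were 40 of 284 in LysoPS-OVA (14.1%, 10.3 to 18.7), 25 of 177 in free OVA (14.1%, 9.35 to 20.1) and 42 of 275 in citrate buffer (15.3%, 11.2 to 20.1). They held 96.9%, 94.9% and 92.3% of the members' Ccl5 UMIs. In the other CD8 T barcodes such barcodes were 3.28%, 10.2% and 8.28%, and in B barcodes 4.59%, 7.67% and 7.48%. This split and those that follow from it were chosen after the data were seen.

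The Ccl5-high members were of more than 1 kind. Of 2957 genes measured in them (at least 50 CPM and 10 UMIs in the higher of the pair), 13 were higher (0.440%) and 1 lower (0.0338%) by 2-fold or more than in the remaining members in all 3 libraries. The higher ones held genes of T cells, such as Ctla2a, but also Fscn1 and Apol7c, genes of migratory and antigen-presenting dendritic cells. Members were therefore split again by the 14 dendritic cell and myeloid markers. At least 3 UMIs of these were found in 6 of 40 Ccl5-high members in LysoPS-OVA (15.0%), 15 of 25 in free OVA (60.0%) and 12 of 42 in citrate buffer (28.6%), against 7.79%, 11.8% and 12.0% of the Ccl5-low members. In that fraction Fscn1, the actin-bundling protein of mature dendritic cells, was detected in 50%, 93.3% and 75.0%, and Lef1 in all barcodes. Fscn1 is 1 of the 14 markers, so its detection there follows from the split and is no finding. These barcodes thus held dendritic cell and myeloid transcripts, by the split, together with Lef1, which nearly all members held. The naive T cell gene Igfbp4 did not follow Lef1 in every library. It was detected in 66.7%, 46.7% and 33.3% of these barcodes in LysoPS-OVA, free OVA and citrate buffer. In the Ccl5-low members with at most 2 such UMIs it was detected in 53.8%, 56.7% and 55.6%.

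The Ccl5-high members with at most 2 such UMIs were 34 in LysoPS-OVA, 10 in free OVA and 30 in citrate buffer. Among the other CD8 T barcodes the same kind numbered 6 of 366, 9 of 235 and 26 of 616 (1.64%, 3.83% and 4.22%). It was thus not confined to members. In free OVA its interval there (1.77 to 7.15) overlapped that of members (5.65%, 2.74 to 10.1). The split was made on these data and several of the genes named were seen to differ in it, so the values are a description. These Ccl5-high members are set beside the Ccl5-low members with as few dendritic cell and myeloid UMIs. Gzmk, the granzyme of central and early effector memory CD8 T cells, was detected in 29.4%, 30% and 20.0% of them and in 0%, 1.49% and 0% of those Ccl5-low members. Cxcr3, a rule gene, was detected in 47.1%, 40.0% and 40.0% against 10.2%, 11.9% and 9.76%, and Ctla2a, an inhibitor of cathepsins made by activated and memory T cells, in 64.7%, 60.0% and 46.7% against 9.78%, 6.72% and 8.29%. Ctla2a was one of the 13 genes already counted as 2-fold higher in the Ccl5-high members. Itgb1 was detected in 61.8%, 50% and 63.3% against 27.6%, 31.3% and 24.9%, and Tbx21, the gene of T-bet, in 32.4%, 50% and 20.0% against 5.78%, 8.21% and 6.34%. In free OVA, Itgb1 was more frequent still (66.7%) in the Ccl5-high members with at least 3 dendritic cell and myeloid UMIs.

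Whole gene lists were set beside all genes in the same way. Of 4202 genes detected in at least 20% of barcodes of the higher fraction in all 3 libraries, 21.5% were more often and 9.23% less often detected in the Ccl5-high fraction in every library. Of 15 naive and recirculating genes, 0 were more often and 6 less often detected in every library, and 14, 8 and 11 were less often detected in LysoPS-OVA, free OVA and citrate buffer. Of 8 cytotoxic granule genes 5 were more often and 0 less often detected in every library, and of 7 transcription factors of effector and memory T cells 4 were more often and 1 less often detected. A sparse gene could pass this filter through the Ccl5-high fraction alone, as Gzmk and Tbx21 did. The counts of granule and transcription factor genes thus describe the split and are no support for it. The free OVA fraction is 10 barcodes, so its shares are coarse. Igfbp4, a gene of naive T cells, was found in 14.7%, 20.0% and 30% of the Ccl5-high fraction in LysoPS-OVA, free OVA and citrate buffer and in 53.8%, 56.7% and 55.6% of the Ccl5-low members. It was the 1 gene already counted as 2-fold lower in the Ccl5-high members, so its shares describe the split. Ccr7 was found in 38.2%, 60.0% and 53.3% against 69.3%, 68.7% and 62.9%, and Lef1 in 76.5%, 80.0% and 90.0% against 99.1%, 98.5% and 100%. The medians of UMIs were 6828.5, 8751 and 6639.5 in this fraction and 6956, 8397 and 6159 in the Ccl5-low members, so depth was close. Cd44 was found in 41.2%, 10.0% and 16.7% of the fraction against 7.11%, 8.21% and 9.76%, a gap that was wide in LysoPS-OVA and narrow in the other libraries.

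**Figure D4:**
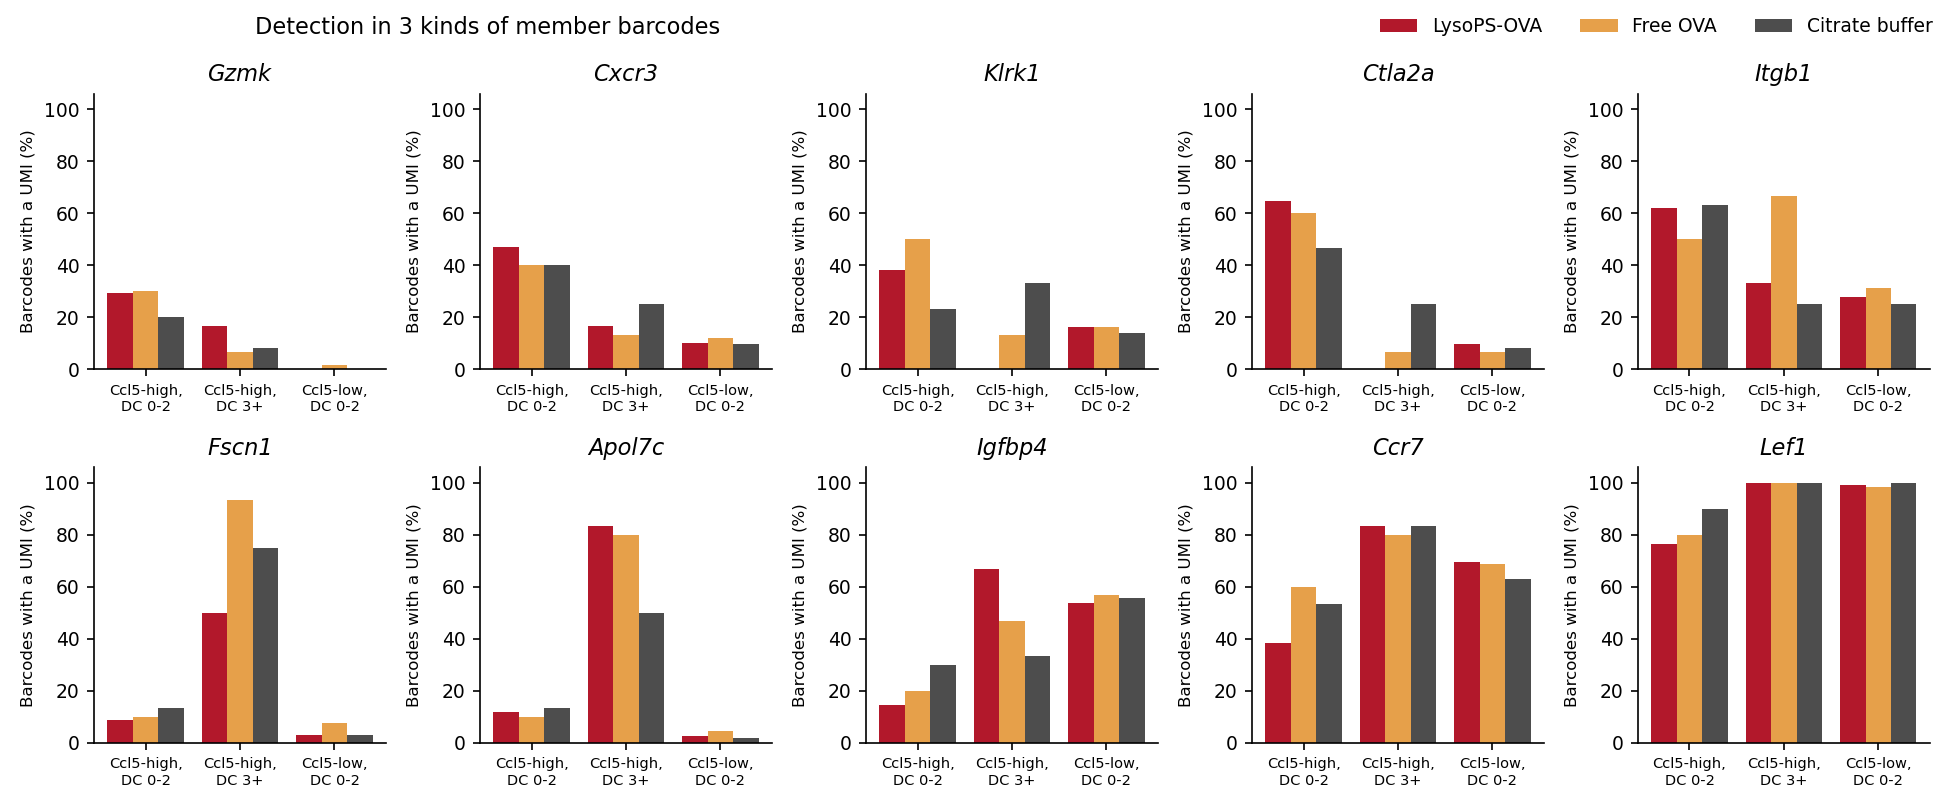
Share of members (percent) with a UMI of each of 10 genes in 3 kinds of members: at least 3 Ccl5 UMIs and 0 to 2 UMIs of the dendritic cell and myeloid (DC) markers, at least 3 of both, and 0 to 2 of both, with 1 bar per library in the order LysoPS-OVA, free OVA, citrate buffer and no error bars. Gzmk, Cxcr3 and Ctla2a are most frequent in the first kind, Fscn1 and Apol7c in the second, and Igfbp4 and Lef1 are least frequent in the first, except that Igfbp4 in citrate buffer is near that of the second. Fscn1 is itself 1 of the DC markers that made the split. Klrk1 in citrate buffer (23.3% against 33.3%) and Itgb1 in free OVA (50% against 66.7%) are less frequent in the first kind than in the second.

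Between libraries, this Ccl5-high fraction was 12.0% of members in LysoPS-OVA (8.44 to 16.3), 5.65% in free OVA (2.74 to 10.1) and 10.9% in citrate buffer (7.48 to 15.2). The ratio of shares was 1.10 (0.691 to 1.74) for LysoPS-OVA over citrate buffer, 0.518 (0.260 to 1.03) for free OVA over citrate buffer and 2.12 (1.07 to 4.18) for LysoPS-OVA over free OVA. Of all CD8 T barcodes it was 5.23%, 2.43% and 3.37%. With 10 barcodes in free OVA, the interval for LysoPS-OVA over free OVA lies just above 1 and those against citrate buffer include 1. The shares of all Ccl5-high members were similar in the 3 libraries, but a larger part of them carried dendritic cell transcripts in free OVA.

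Summed over members, few genes differed by 2-fold between libraries. For LysoPS-OVA over citrate buffer, 9 of 3295 genes measured were higher (0.273%) and 7 lower (0.212%), 0.486% in all. For free OVA over citrate buffer, 9 of 3340 were higher (0.269%) and 14 lower (0.419%), 0.689% in all. With edgeR's TMM factors in place of total UMIs the splits were 11 higher and 5 lower, and 12 higher and 11 lower. Either side of 0, 36.6% of the genes measured were higher and 63.4% lower for LysoPS-OVA over citrate buffer, and 37.5% higher and 62.5% lower for free OVA over citrate buffer, with median log2 ratios of -0.08 and -0.07. For LysoPS-OVA over free OVA, 3 of 3217 were higher (0.0933%) and 15 lower (0.466%), 0.560% in all. The comparisons share libraries, so they are not independent of each other.

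Class I MHC genes were among them. H2-Q7 (chr17:35439155-35443773, plus strand, mm10), which encodes the nonclassical class I molecule Qa-2, had 416 CPM in LysoPS-OVA, 220 CPM in free OVA and 187 CPM in citrate buffer, and a UMI in 91.5%, 79.7% and 68.4% of members. The fold was 2.22 (1.96 to 2.52) for LysoPS-OVA over citrate buffer and 1.18 (1.01 to 1.37) for free OVA over citrate buffer. LysoPS-OVA stood apart from both other libraries, and the other CD8 T barcodes had the same order, with 387, 220 and 154 CPM. In B barcodes the levels were 140, 98.3 and 121 CPM. The H2-Q genes are near-identical copies between which reads may be split, so the 6 of them were also summed, which gave 537, 319 and 258 CPM and a fold of 2.08 (1.87 to 2.32) for LysoPS-OVA over citrate buffer. H2-Q6 alone had 70.0, 57.3 and 32.9 CPM.

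H2-T23 (chr17:36029773-36032855, minus strand, mm10), the gene of Qa-1, which presents peptides to the CD94 and NKG2 receptors, was instead highest in free OVA. It had 78.4 CPM in LysoPS-OVA, 190 CPM in free OVA and 63.0 CPM in citrate buffer, with a fold of 3.01 (2.42 to 3.76) for free OVA over citrate buffer and 0.414 (0.340 to 0.502) for LysoPS-OVA over free OVA. The other CD8 T barcodes had 80.8, 169 and 73.5 CPM and B barcodes 121, 182 and 78.6 CPM, so the same library was highest in all 3 kinds of barcode. Over the class I list, the median log2 ratio was 0.09 for LysoPS-OVA over citrate buffer, 0.27 for free OVA over citrate buffer and -0.20 for LysoPS-OVA over free OVA, against -0.08, -0.07 and 0.01 over all genes. Of 13 members of the list measured, 11 were higher in free OVA than in citrate buffer, against 37.5% of all genes, 1 of them by 2-fold.

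Heat shock and early response genes were higher with ovalbumin in either form. All 10 of the list that were measured were higher in LysoPS-OVA than in citrate buffer, 1 of them by 2-fold, with a median log2 ratio of 0.49, against 36.6% of all genes and a median of -0.08. In free OVA 9 of 11 were higher than in citrate buffer, with a median of 0.38, against 37.5% of all genes and a median of -0.07. Dnajb1, a co-chaperone of the HSP70 system, had 71.4, 59.2 and 28.6 CPM in LysoPS-OVA, free OVA and citrate buffer, and Dnaja1, another one, had 537, 432 and 298 CPM. B barcodes had the same order, with 46.6, 38.6 and 19.1 CPM of Dnajb1 and 495, 347 and 194 CPM of Dnaja1. Hsp90aa1 was higher in LysoPS-OVA only, with 480, 305 and 337 CPM. Dnajb1 was under 50 CPM in citrate buffer, so it was measured through the other libraries alone. Without the filter, all 18 genes of the list summed to 2707, 2311 and 1920 CPM in members of LysoPS-OVA, free OVA and citrate buffer. With 1 library per group, feeding and the handling of each pool cannot be told apart.

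Genes of dividing cells were highest in citrate buffer. All 6 genes of the cell cycle list that were measured were lower in LysoPS-OVA and in free OVA than in citrate buffer, with median log2 ratios of -0.41 and -0.60, against 63.4% and 62.5% of all genes and medians of -0.08 and -0.07. Top2a and Ezh2 reached 50 CPM in citrate buffer alone, so they were measured only through that library. The count and medians thus partly describe the filter. Without it, all 22 genes of the list summed to 893, 835 and 1205 CPM in members of LysoPS-OVA, free OVA and citrate buffer. Top2a, which untangles DNA before division, had 8.92, 8.91 and 51.2 CPM, but 1 barcode held 30.5% of its UMIs in citrate buffer, and leaving out the top barcode of each library the log2 ratio of LysoPS-OVA over citrate buffer was -1.34. Ezh2, a histone methyltransferase raised in dividing lymphocytes, had 20.7, 25.4 and 57.1 CPM in members and 27.9, 31.9 and 69.5 CPM in the other CD8 T barcodes. B barcodes gave 32.0, 39.6 and 83.3 CPM of Ezh2, again highest in citrate buffer.

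Other genes named by rank or list were of mixed kinds. P2rx7, the ATP-gated receptor of memory and intraepithelial CD8 T cells, had 26.8 CPM in LysoPS-OVA, 12.7 CPM in free OVA and 62.5 CPM in citrate buffer, with a fold of 0.428 (0.306 to 0.593) for LysoPS-OVA over citrate buffer and 0.204 (0.120 to 0.329) for free OVA over citrate buffer. Plac8 had 72.3, 52.2 and 170 CPM in members and 45.7, 46.6 and 108 CPM in the other CD8 T barcodes. Abcb1a, a membrane efflux pump of the P-glycoprotein family, had 53.1, 31.8 and 11.9 CPM, with a fold of 4.48 (2.82 to 7.43) for LysoPS-OVA over citrate buffer. In the other CD8 T barcodes that fold was 1.95 (1.26 to 3.05). St8sia1, a sialyltransferase that makes gangliosides, had 85.0, 56.0 and 28.0 CPM in members and 101, 89.5 and 63.1 CPM in the other CD8 T barcodes. Vmn2r96, annotated as a vomeronasal receptor, had 61.5, 44.5 and 11.9 CPM in members and 217, 137 and 40.9 CPM in B barcodes, so B cells held more of it than members.

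Ikzf2, the gene of the transcription factor Helios, was almost missing from free OVA. It had 103 CPM in LysoPS-OVA, 8.27 CPM in free OVA and 157 CPM in citrate buffer, and a UMI in 11.6%, 6.21% and 34.5% of members. The fold was 0.0528 (0.0278 to 0.0916) for free OVA over citrate buffer and 0.659 (0.551 to 0.788) for LysoPS-OVA over citrate buffer. Both intervals take each UMI as independent and are too narrow, since up to 72 UMIs lay in 1 barcode. In the other CD8 T barcodes Ikzf2 had 51.6, 19.2 and 173 CPM, and in B barcodes 13.3, 12.1 and 48.8 CPM. One barcode held 32.7% of its UMIs in LysoPS-OVA, and without the top barcode of each library the log2 ratio was 2.23 for LysoPS-OVA over free OVA and -3.12 for free OVA over citrate buffer. Helios transcripts were thus lowest in free OVA and highest in citrate buffer in members, and citrate buffer was also highest in the other CD8 T and B barcodes. Hgsnat, a lysosomal acetyltransferase, had 93.0, 31.8 and 87.8 CPM, and Slc25a40, a mitochondrial carrier, had 70.0, 33.1 and 69.0 CPM.

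Some of the largest differences rested on few barcodes or on transcripts of other cells. Ccl4, a chemokine of activated T cells, had 69.5, 5.73 and 11.3 CPM in LysoPS-OVA, free OVA and citrate buffer, but 1 LysoPS-OVA barcode held 49.3% of its UMIs, and the log2 ratio of LysoPS-OVA over citrate buffer was 1.90 with and 1.28 without the top barcode of each library. Cxcl9, a chemokine of myeloid cells, had 0.939, 53.4 and 1.08 CPM, with 88.1% of the free OVA UMIs in 1 barcode. Cst3, a dendritic cell and myeloid marker, had 121, 441 and 159 CPM, with 39.2% of the free OVA UMIs in 1 barcode. Fscn1 (13.6, 57.9 and 26.9 CPM) and Apol7c (19.7, 68.1 and 20.5 CPM) were likewise highest in free OVA, the library in which the dendritic cell and myeloid markers summed to 530 CPM in members. These markers moved with the genes higher in free OVA, and their part in other differences of that library was not tested.

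**Figure D5:**
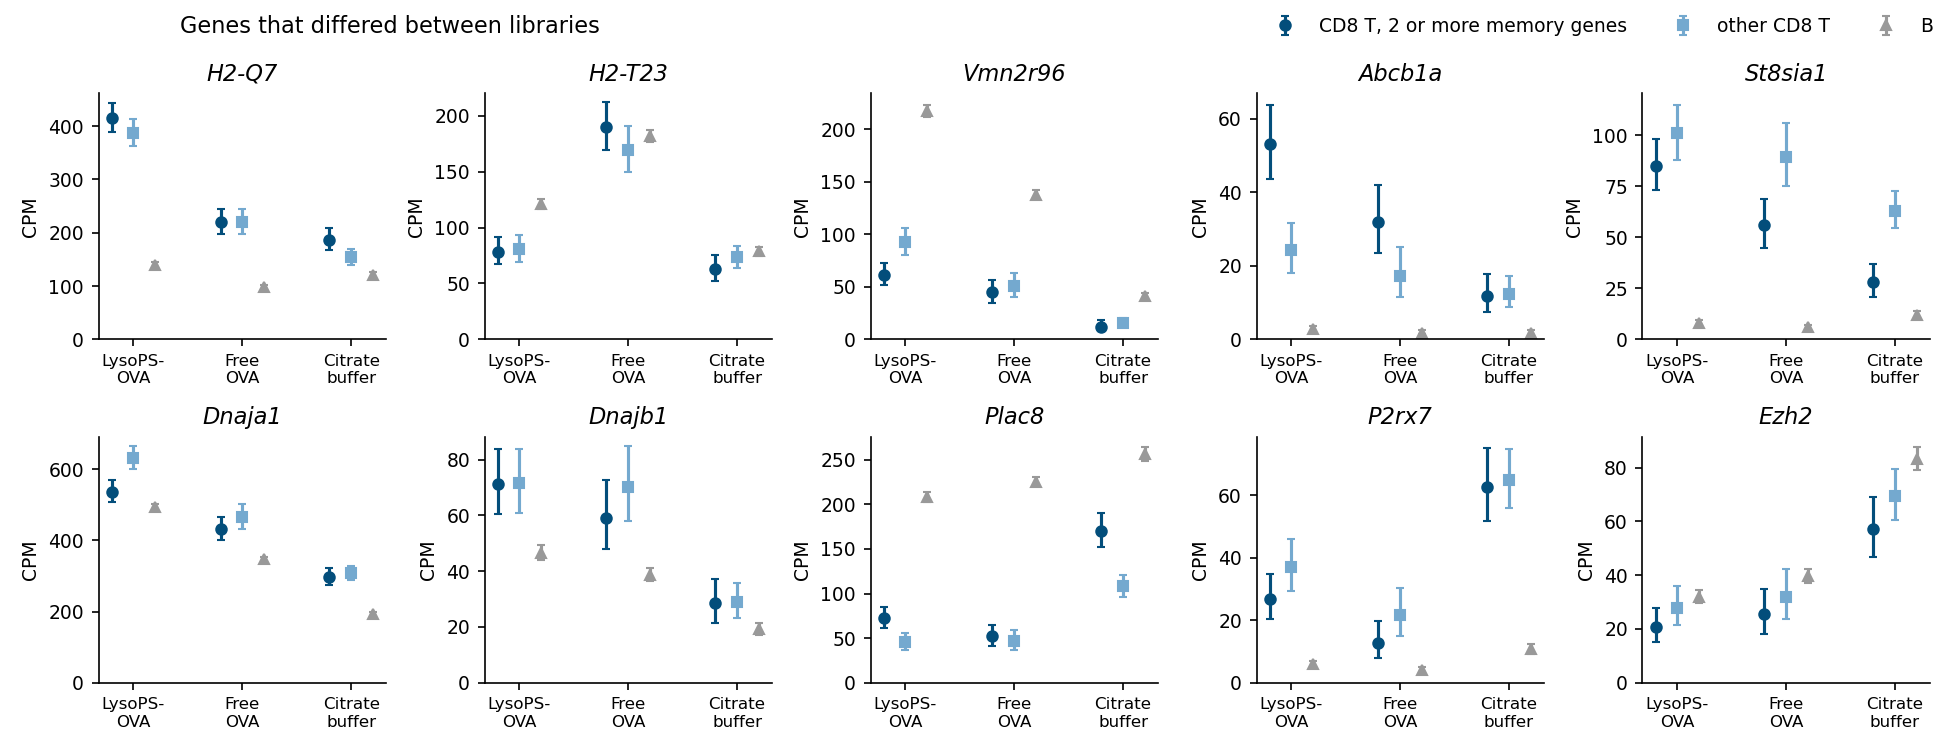
Level (CPM of summed UMIs, with exact 95% Poisson intervals) of 10 genes that differed between libraries, in memory-gene CD8 T barcodes (circles), other CD8 T barcodes (squares) and B barcodes (triangles), for LysoPS-OVA, free OVA and citrate buffer from left to right. H2-Q7, Abcb1a, Dnaja1 and Dnajb1 are highest in LysoPS-OVA members, H2-T23 in free OVA members and Plac8, P2rx7 and Ezh2 in citrate buffer members.

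Among the 6 memory genes, Klrk1 had 53.1, 26.7 and 34.5 CPM in members of LysoPS-OVA, free OVA and citrate buffer. The rule used its level, so these values describe the rule and are no finding, and 1 LysoPS-OVA member held 16 of its UMIs. Ccl5 was 1.24-fold (1.14 to 1.35) in LysoPS-OVA over citrate buffer and 1.02-fold (0.923 to 1.12) in free OVA over citrate buffer. These intervals take each UMI as independent and are too narrow. Ccl5-high members held 96.9%, 94.9% and 92.3% of the UMIs, with up to 136, 122 and 170 in 1 barcode. Their share of members was 14.1%, 14.1% and 15.3% in LysoPS-OVA, free OVA and citrate buffer, not higher with LysoPS-OVA. Tox, a transcription factor of developing and chronically stimulated T cells, had 547, 431 and 415 CPM. The 7 cytotoxic granule genes measured for LysoPS-OVA over citrate buffer had a median log2 ratio of 0.04, with 5 higher and 2 lower and none by 2-fold. Of 15 naive and recirculating genes, 12 were lower in LysoPS-OVA than in citrate buffer and 12 were lower in free OVA than in citrate buffer, none by 2-fold, with median log2 ratios of -0.18 and -0.09, where 63.4% and 62.5% of all genes were lower. The 17 T cell receptor signalling genes had medians of -0.02 and -0.17 against -0.08 and -0.07 over all genes, and none differed by 2-fold.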

How the data were processed

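Each library held raw UMI counts per gene and barcode, which the authors deposited as matrices of 32285 genes with 20873, 28660 and 28927 barcodes for LysoPS-OVA, free OVA and citrate buffer. The submitters' processing notes name Cell Ranger 7.2.0 and mm10. The annotation that the authors counted on, like the setting for introns, is not given in the sources used here. With 300 genes or more and no more than 10% of UMIs mitochondrial, 17323, 23331 and 26348 barcodes were kept. Doublets were not removed. Scrublet, run per library as an alternative, called 2.46%, 6.21% and 16.0% of members.

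UMIs were summed over members per library (2129098, 1571846 and 1856174) and divided by the total to CPM. Log2 ratios used a pseudocount of 10 CPM and covered genes with at least 30 UMIs and 50 CPM in the higher library. Intervals are exact Poisson for CPM, Clopper-Pearson for shares, Katz for ratios of shares and conditional binomial for folds. No p-value was computed.

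Named between libraries were the 5 highest and 5 lowest genes per comparison without immunoglobulin, T cell receptor, ribosomal, mitochondrial, haemoglobin and unnamed genes, against other CD8 T barcodes up to 10 each way past 2-fold in all 3 libraries, the 4 members of each list farthest from 0, and preset CD8 T cell genes, of which 1 is not reported here. Members and lists were chosen with earlier results of these data known. The calculation was tested on simulated data with known folds. Positions came from GENCODE release 21 on mm10 (32235 of 32285 genes, 99.8%) and promoters from RefSeq on GRCm38.p6, which matched 5 of the 7 genes looked up. The tools were scanpy 1.11.5, scipy 1.17.1, numpy 2.4.6, pandas 2.3.3 and matplotlib 3.10.9 in Python 3.11.15, and edgeR 4.0.16 and DESeq2 1.42.0 in R 4.3.3 for scaling factors only.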

Additional observations from a re-analysis of the deposited data

How the results depend on the processing

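Each count of genes 2-fold apart is given here for LysoPS-OVA over citrate buffer, free OVA over citrate buffer and LysoPS-OVA over free OVA, with 16, 23 and 18 as reported. It was 25, 46 and 33 with at least 3 memory genes, 32, 48 and 28 with at least 2 of Il2rb, Eomes, Ly6c2 and Cxcr3, and 52, 35 and 30 without barcodes holding a UMI of 8 B and myeloid genes. It was 0, 7 and 7 with a pseudocount of 50 CPM, 42, 56 and 48 without the filter on low counts, and 34, 45 and 29 with ribosomal, mitochondrial and similar genes left out of the total. A pseudocount of 1 CPM gave 38 for free OVA over citrate buffer, and 10 for LysoPS-OVA over free OVA came from averaging CPM per barcode and, chosen after the data were seen, from leaving out the top barcode of each gene. The 6 genes apart between members and other CD8 T barcodes became 14, 14, 2, 0, 17 and 14 under the first 6 of these settings, and 3 when both were thinned to 2000 UMIs. DESeq2 size factors gave 11 higher and 5 lower genes for LysoPS-OVA over citrate buffer and 13 higher and 9 lower for free OVA over citrate buffer, and with TMM or DESeq2 factors Rgcc was no longer 2-fold apart. TMM factors put the median over all genes at 0.02 for LysoPS-OVA over citrate buffer, against -0.08 as reported.

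Lists at least 0.25 log2 from the median of all genes were 4, 5 and 0 as reported. For LysoPS-OVA over citrate buffer 2 remained in number with at least 3 memory genes or averaged CPM. For free OVA over citrate buffer there were 2 with the filter on Malat1 and ribosomal transcripts or averaged CPM, and 3 with a pseudocount of 50 CPM, no filter or the top barcode left out. For LysoPS-OVA over free OVA there were 2 with at least 3 memory genes, 3 with the 4-gene rule and 1 without B and myeloid UMIs. The median of the NK family receptor list, over 2 genes, was 0.25 for LysoPS-OVA over citrate buffer and turned to -0.16 with at least 3 memory genes, -0.08 without doublets and -0.03 without the filter. Members were 16.8%, 18.4% and 12.1% of CD8 T barcodes in LysoPS-OVA, free OVA and citrate buffer with at least 3 memory genes and 22%, 21.4% and 15.6% with the 4-gene rule. Without B and myeloid UMIs they were 31.1% in free OVA and 23.6% in citrate buffer. They were 1.64%, 0.759% and 1.04% of all kept barcodes, and 18.7%, 13.4% and 12.2% after thinning. Of the 52 changes to these counts and shares, the cause was not tested where fewer barcodes or genes do not show it, and 81 others stayed close to the reported value. No paired analysis was possible because each group is 1 library. Genes under 50 CPM and barcodes with few UMIs limit what could be seen, and no difference here separates feeding from the pool, its handling or its sex makeup.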

Other observations

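The lists that follow are set beside all genes measured in members, of which 36.6% were higher and 63.4% lower in LysoPS-OVA than in citrate buffer and 37.5% higher and 62.5% lower in free OVA than in citrate buffer, with median log2 ratios of -0.08 and -0.07. Of the 8 costimulation and activation genes measured, 5 were higher and 3 lower in LysoPS-OVA than in citrate buffer, none by 2-fold, with Cd28, the main costimulatory receptor, at 219 CPM in LysoPS-OVA, 195 CPM in free OVA and 155 CPM in citrate buffer. Cd69, an early activation and retention receptor, had 265, 263 and 204 CPM in members and 261, 225 and 171 CPM in B barcodes, the same order in both. Of the 7 TGF-beta response genes, 6 were lower in LysoPS-OVA and 7 in free OVA than in citrate buffer, with median log2 ratios of -0.23 and -0.25. Smurf2, a ubiquitin ligase of that pathway, had 168, 175 and 242 CPM in members and 190, 215 and 297 CPM in the other CD8 T barcodes.

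Of 13 genes of oxidative and glycolytic metabolism, 12 were lower in LysoPS-OVA and 10 in free OVA than in citrate buffer, with medians of -0.21 and -0.36 and none past 2-fold. Pkm, the last enzyme of glycolysis, had 93.5, 88.4 and 138 CPM. The interferon response list was even, with 7 of 14 genes higher in LysoPS-OVA than in citrate buffer. Within it Ly6a, the surface protein Sca-1, had 90.6, 165 and 109 CPM, and Iigp1, an interferon-induced GTPase, had 57.8, 66.2 and 33.4 CPM. Of 8 checkpoint and exhaustion genes, 4 were higher and 4 lower in LysoPS-OVA than in citrate buffer. Btla, an inhibitory receptor, had 43.7, 35.6 and 75.4 CPM in members and 539, 448 and 540 CPM in B barcodes. A T cell receptor beta variable gene was detected in 48 of 284 members in LysoPS-OVA, too few for a repertoire.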
